A study of Sus scrofa with 4 samples.

Results

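CD3D, CD3E, CD3G and CD247 encode the signalling chains of the T cell receptor (TCR) complex, LCK the kinase that acts on them first, and NCK1 an adaptor that binds the complex. These 6 genes were taken by name, and every array probe whose RefSeq accession belongs to 1 of them was used, which gave 10 probes for 6 of the 2962 genes with a named probe on the array. In the thymus of IL2RG KO pigs the signal of all 6 genes was lower than in WT thymus. By the brightest probe of each gene, it was from 3.05-fold lower for NCK1 to 7.98-fold lower for CD247. By these probes the 3 CD3 chains fell by similar amounts, between 4.35-fold and 5.59-fold, and LCK fell by 5.89-fold. The dimmer probes ran from 3.35-fold lower for CD3G to 8.88-fold lower for CD247.

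The TCR itself binds peptide on MHC molecules but has almost no cytoplasmic part, and its signal is passed on by the CD3 gamma, delta and epsilon chains and by the zeta chain, the product of CD247. These chains carry tyrosine motifs in their tails. LCK, a kinase of the Src family that is carried by the coreceptors CD4 and CD8, phosphorylates the motifs, which then recruit ZAP-70 or its relative SYK. NCK1 joins SH2 and SH3 domains, binds the tail of CD3 epsilon and links the receptor to the actin cytoskeleton. In the thymus the same chains first serve the pre-TCR, in which PTCRA, the invariant pre-TCR alpha chain, pairs with a newly rearranged beta chain.

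The arrays held thymus RNA of Minnesota miniature swine, with 2 KO and 2 WT samples. The KO samples are labelled IL2RG+/-, and the methods describe them as cloned pigs that carried a TALEN-made deletion on 1 allele of IL2RG, the gene of the common cytokine receptor gamma chain. Only KO pigs with a rudimentary thymus could give thymus RNA, so the KO group stands for those animals and not for the athymic ones. The ages at sampling and the origin of the WT animals are not given in the sources used here. The paper states that the KO expression data came from the 2 KO pigs that had a thymus. The labels tell the samples within a genotype apart only by a replicate number, and all p-values measure the spread between these samples. Slide 1 carried KO replicate 1 with WT replicate 2, while slide 2 carried the other two arrays.

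Signals are given as log2 values on which the 75th percentile of each array is 0, and a fold change is the mean of the KO arrays minus that of the WT arrays with its standard error (SE). A probe was called higher or lower when limma gave an adjusted p under 0.05 and the change was at least 2-fold. In these bulk samples fewer cells of a type and less RNA per cell cannot be told apart. Between 67.9% and 74.5% of the 43603 probes of an array were well above background and no spot was saturated. The 2 probes of IL2RG were 3.41 (SE 0.27, adjusted p = 0.00256, limma) and 4.38 (SE 0.26, adjusted p = 0.00208, limma) log2 units lower in KO, with every KO array below every WT array, though where these probes lie relative to the deletion is not given in the sources used here. The thymus label was checked against its markers. RAG1 and RAG2, the recombinase genes of immature lymphocytes, and PTCRA were well above background on both WT arrays, and CCL25 and EPCAM, made by thymic epithelium, on all 4 arrays. In KO, RAG2 was well above background on 1 of the 2 arrays.

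CD3E, the chain that is needed for assembly of the whole receptor and that holds the docking site for NCK1, was read by 1 probe. Its signal was 1.89 and 1.99 on KO arrays 1 and 2, and 4.18 and 4.49 on WT arrays 1 and 2. Both KO arrays thus lay below both WT arrays, and the KO arrays lay closer together than the WT arrays. The change was -2.40 (SE 0.18, adjusted p = 0.00248, limma), or 5.27-fold lower, with -2.60 within slide 1 and -2.19 within slide 2.

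CD3D, which pairs with CD3 epsilon in the receptor, had 2 probes that gave nearly the same reading. The brighter one read -0.16 and -0.11 in KO and 1.77 and 2.19 in WT, and the dimmer one -0.26 and -0.34 in KO and 1.69 and 2.30 in WT. The groups did not overlap on either probe, and on both WT replicate 2 was the highest array. The brighter probe changed by -2.12 (SE 0.21, adjusted p = 0.00363, limma) and the dimmer by -2.30 (SE 0.25, adjusted p = 0.00466, limma).

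CD3G, the partner of CD3 epsilon in the other CD3 dimer, had 2 probes that differed in the size of the change. Its brighter probe read 2.83 and 2.84 in KO against 5.22 and 5.42 in WT, a change of -2.48 (SE 0.16, adjusted p = 0.00216, limma). Its dimmer probe read -0.93 and -1.14 in KO against 0.39 and 1.02 in WT, a change of -1.74 (SE 0.27, adjusted p = 0.00957, limma), or 3.35-fold lower. Both probes fell, and the brighter exceeded the dimmer by 3.76 and 3.98 in the KO arrays but by 4.82 and 4.40 in the WT arrays. By the dimmer probe CD3G would have the smallest fall of the 3 CD3 chains. Whether these probes read different transcript forms was not tested.

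CD247, whose zeta homodimer carries more of the tyrosine motifs than any CD3 chain, showed the largest fall of the 6 genes on each of its 2 probes. The brighter probe read 2.96 and 2.98 in KO and 5.85 and 6.08 in WT. The dimmer probe read 0.99 and 0.90 in KO and 3.84 and 4.35 in WT. The lowest WT array was 2.87 above the highest KO array on the brighter probe and 2.85 above it on the dimmer one, the widest gaps among the 10 probes. The changes were -3.00 (SE 0.17, adjusted p = 0.00205, limma) and -3.15 (SE 0.23, adjusted p = 0.00236, limma), or 7.98-fold and 8.88-fold lower.

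LCK, the kinase, fell to the same degree by both of its probes. The brighter probe read 2.62 and 2.63 in KO and 4.83 and 5.53 in WT, and the dimmer 0.07 and 0.10 in KO and 2.49 and 2.99 in WT. The KO arrays were almost equal, while WT replicate 2 lay 0.70 above WT replicate 1 on the brighter probe, the widest spread between WT arrays among the 10 probes. The changes were -2.56 (SE 0.28, adjusted p = 0.00449, limma) and -2.66 (SE 0.23, adjusted p = 0.00287, limma). Within slide 1, which held WT replicate 2, the brighter probe was 2.92 lower in KO, and within slide 2 it was 2.20 lower.

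NCK1, the adaptor, was read by 1 probe and showed the smallest fall. The KO arrays read -1.93 and -1.70 and the WT arrays -0.28 and -0.13, again without overlap. The change was -1.61 (SE 0.17, adjusted p = 0.00447, limma), or 3.05-fold lower, with -1.80 within slide 1 and -1.42 within slide 2. Unlike the CD3 chains, NCK1 is made by most cell types.

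**Figure D1:**
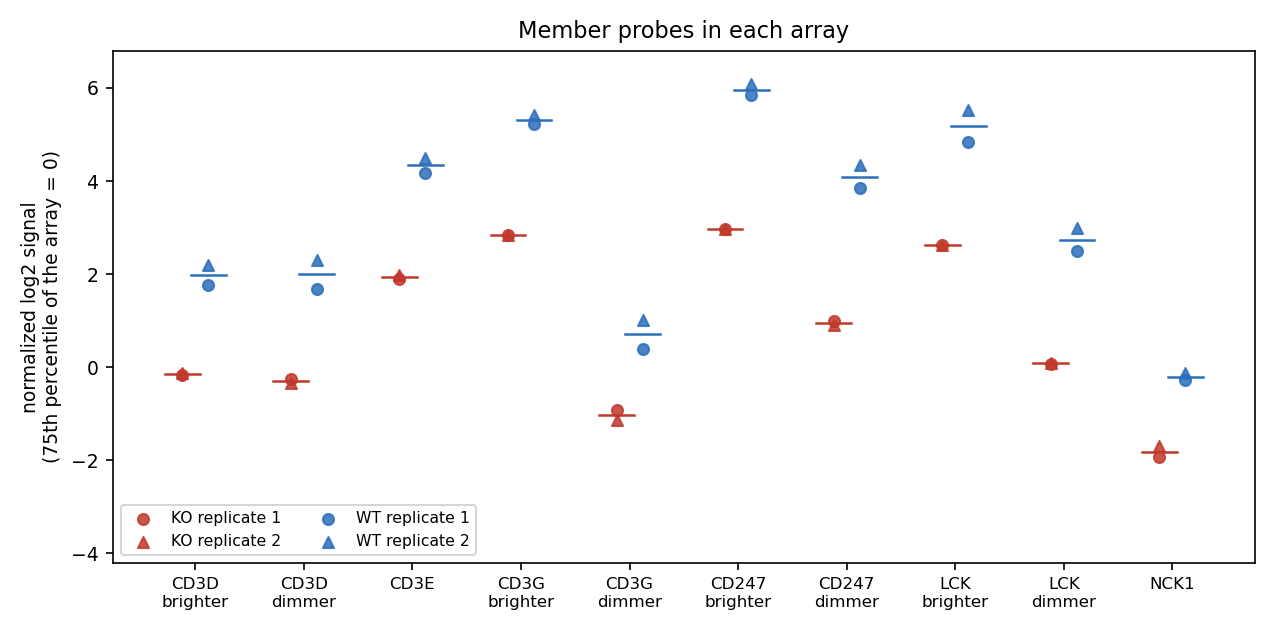
Normalized log2 signal (vertical axis, with the 75th percentile of each array at 0) of the 10 probes of the 6 genes in the 4 arrays. Points are single arrays and horizontal lines are the means of the 2 arrays of a genotype. On every probe both KO arrays lie below both WT arrays, and the WT arrays are spread more widely than the KO arrays on 9 of the 10 probes. Heights of different probes cannot be compared.

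Set against the whole array, the 6 genes lay in the lower tail. All 10 probes were well above background on all 4 arrays, all 10 were called lower, and on all 10 the genotypes did not overlap. Over all 31959 probes tested, 13.0% were called lower and 41.0% had both KO arrays below both WT arrays. By the brighter probe, 6 of the 6 genes were called lower against 12.3% of the 2666 named genes tested, and 5 of them passed 4-fold. The median change was -2.44 for the 6 genes and -0.06 for all probes. Of all probes, 1.72% changed by as much as CD247 or fell further, 2.46% as much as LCK, 2.69% as much as CD3G, 2.96% as much as CD3E, 3.80% as much as CD3D and 6.21% as much as NCK1. With each array left out in turn, the changes of the 6 genes by the brighter probe ran from -3.11 for CD247 to -1.49 for NCK1. Not every one of the 10 probes kept its call there. The methods' t-test kept 0 of the 6 calls after Bonferroni correction and 2 after Benjamini-Hochberg adjustment.

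**Figure D2:**
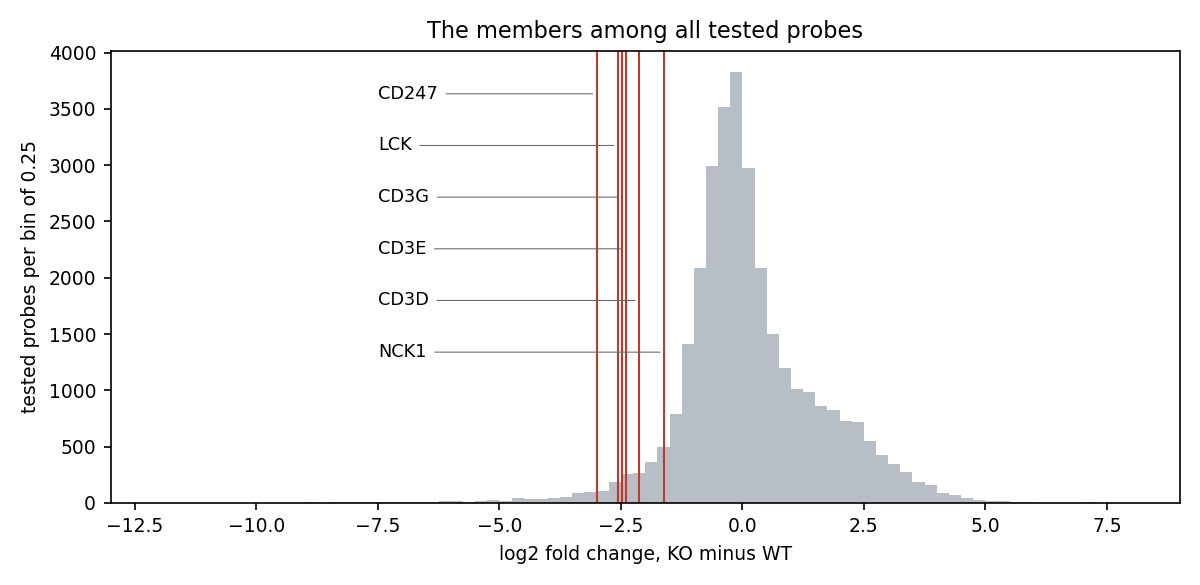
Histogram of the log2 fold change (horizontal axis, KO minus WT) of the 31959 probes tested, with the number of probes per bin on the vertical axis. Red lines mark the brighter probe of each of the 6 genes, which lie between -3.00 for CD247 and -1.61 for NCK1, in the left tail of a distribution with a median of -0.06.

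The WT arrays differed on these genes and the KO arrays differed little. WT replicate 2 was above WT replicate 1 on all 10 probes, by 0.15 to 0.70 with a median of 0.46, while over all probes 50.2% were higher in WT replicate 2 and the median size of the difference was 0.30. Between the KO arrays the 10 probes differed by -0.21 to 0.23, with 7 of them higher in replicate 2. The 10 tested genes of the thymocyte list were all higher in WT replicate 2 than in WT replicate 1. Of the proliferation genes 6 of 8 were higher in WT replicate 2, and of the NK and gamma-delta T cell genes 4 of 7. Of the macrophage genes 1 of 10 was higher in that array, and of the thymic epithelium genes 1 of 5. Of the B cell, fibroblast, endothelium and adipocyte genes it was none of 4, 5, 5 and 6. The part of this difference between the WT arrays in the changes of the 6 genes was not tested. Within each slide all 10 probes were lower in KO, which follows from the lack of overlap between the genotypes.

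The other genes of the pathway moved in both directions. Of 92 genes listed as kinases, adaptors, coreceptors or downstream parts of TCR signalling, 33 had a tested and named probe, of which 6 were called lower and 3 higher, and their median change was -0.55. Among all named genes tested, 12.3% were called lower and 25.4% higher. With arrays scaled to the median, 14 of the 33 genes were called lower and 3 higher. ZAP70, LAT and LCP2, which stand between LCK and the downstream pathway, had no named probe and were not analysed here.

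Among the kinases, 1 of the 2 genes measured was called lower. SYK, the relative of ZAP-70 that also binds phosphorylated CD3 and zeta tails and is strongly expressed in B cells and myeloid cells, read 2.54 and 2.55 in KO and 4.69 and 4.59 in WT. Its change was -2.09 (SE 0.15, adjusted p = 0.00236, limma), and both of its probes fell. FYN, the other Src family kinase of T cells, read 0.35 and 0.51 in KO and 0.87 and 1.55 in WT. Its groups did not overlap, but its change of -0.78 (SE 0.28, adjusted p = 0.0786, limma) passed neither limit of the call.

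Among the 8 adaptors and actin regulators 1 was called lower. This was SH2D1A, the small adaptor of SLAM family receptors in T and NK cells, at -0.19 and -0.16 in KO against 2.47 and 3.09 in WT, a change of -2.96 (SE 0.26, adjusted p = 0.00296, limma). NCK2, the closest relative of NCK1, read 0.48 and 0.19 in KO and -0.20 and -0.58 in WT. Its change was 0.72 (SE 0.22, adjusted p = 0.0535, limma), opposite in sign to that of NCK1 and not called. The others, GRB2, DOK1, DOK2, CDC42 and the actin branching subunits ARPC2 and ARPC3, lay between -0.83 and -0.26 and were not called, though a further probe of DOK2 was.

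Of the 7 coreceptors and costimulators, 4 were called lower. CD4 changed by -2.60 (SE 0.34, adjusted p = 0.00674, limma) and CD8A, a chain of the other coreceptor, by -2.50 (SE 0.34, adjusted p = 0.00699, limma). CD2, an adhesion receptor of T and NK cells, changed by -1.47 (SE 0.17, adjusted p = 0.00497, limma). PTCRA fell furthest, from 2.58 and 2.94 in WT to -4.26 and -5.70 in KO, a change of -7.74 (SE 0.52, adjusted p = 0.00217, limma). The costimulator ICOS was at -1.30 (SE 0.40, adjusted p = 0.0531, limma), the inhibitory receptor CTLA4 at -0.10 and CD40LG, the ligand by which T cells help B cells, at 0.59, and none of these was called.

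Downstream of the receptor no gene of 16 was called lower and 3 were called higher, against 25.4% higher among all named genes. With arrays scaled to the median, 4 of them, FOS, GSK3B, NFATC1 and STIM1, were called lower. PPP3CA, a catalytic subunit of calcineurin, rose by 1.37 (SE 0.21, adjusted p = 0.00980, limma), and 2 of its 3 probes were called. NFATC2, a transcription factor that calcineurin activates, rose by 1.36 (SE 0.29, adjusted p = 0.0219, limma) and NFKB1, a subunit of NF-kB, by 1.27 (SE 0.19, adjusted p = 0.00836, limma). None of the 3 was called when either KO array was left out. GSK3B, NFATC1 and STIM1 passed the adjusted p with changes of -0.94, -0.88 and -0.80, which are smaller than 2-fold. The median of the 16 genes was -0.19.

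**Figure D3:**
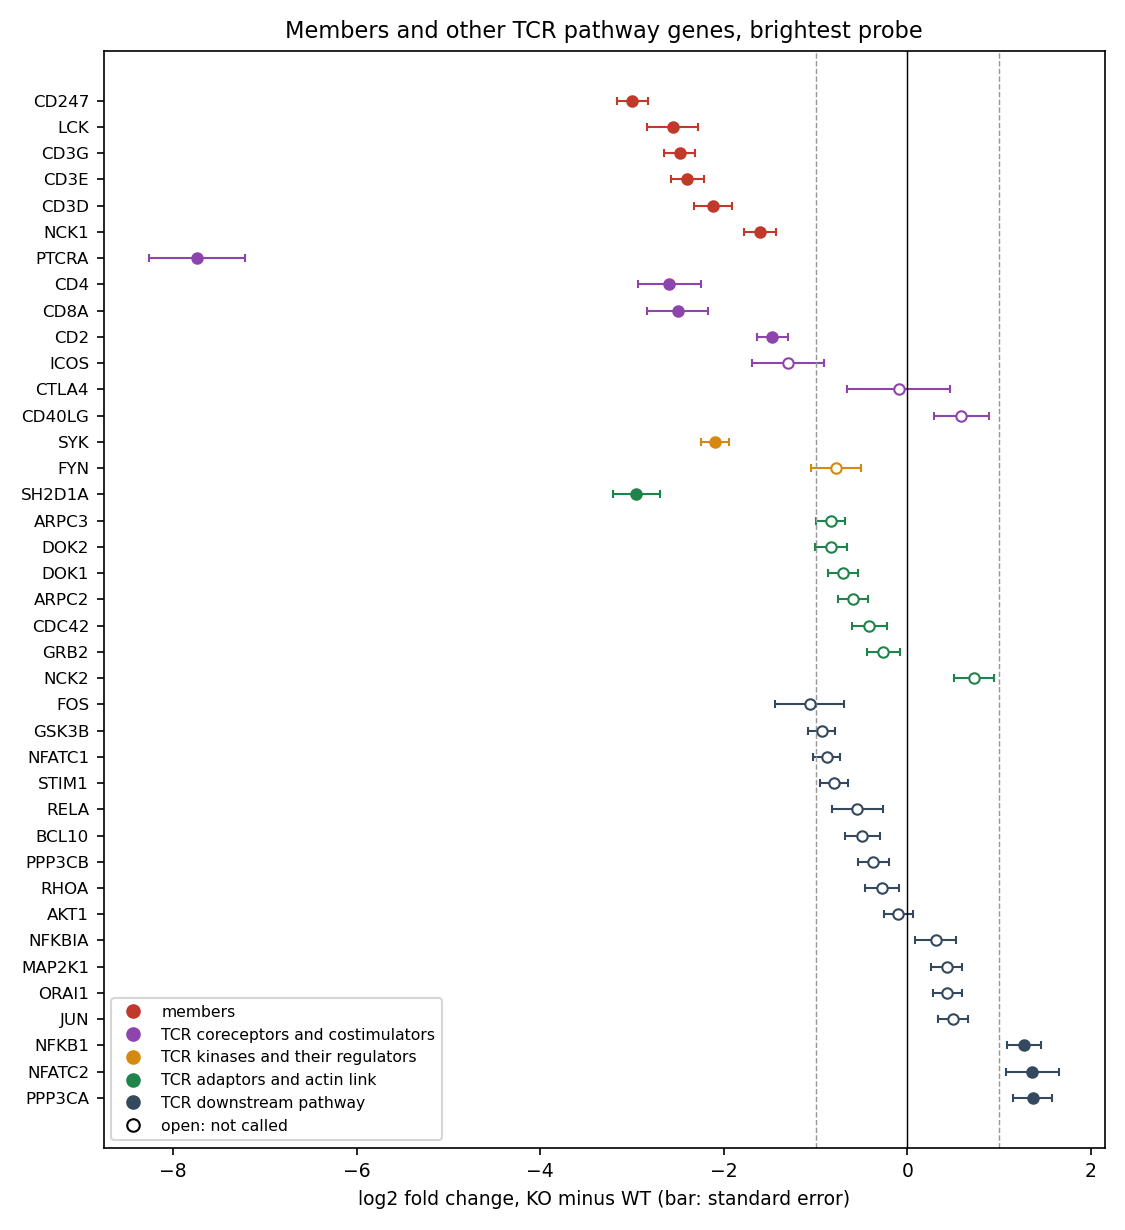
Log2 fold change (horizontal axis, KO minus WT, with bars of 1 standard error) of the 6 genes and the 33 other tested genes of the pathway, each by its brightest probe. Filled points were called and open points were not, and dashed lines mark 2-fold. The 6 genes lie between -3.00 and -1.61, PTCRA at -7.74, and the downstream genes on both sides of 0.

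To ask which genes fell more or less than the CD3 chains themselves, every array was set to the mean of the brightest CD3D, CD3E and CD3G probes, which had changed by -2.33, and all probes were fitted again. This test was chosen after the changes were seen. On that scale the level of an array cancels out. A call on that scale needed an adjusted p under 0.05 alone, with no limit on the size of the difference. The median change of all probes was -0.06, so most probes differ from the CD3 chains by the choice of reference. Of all probes, 95.3% were called different. A gene without a call is thus the rarer case, but a missing call does not show an equal change. With so many probes called, the Benjamini-Hochberg adjustment hardly altered p-values near 0.05, so such adjusted p are close to unadjusted ones. CD247 fell 0.66 further than the CD3 chains (95% interval of the difference -1.17 to -0.16, adjusted p = 0.0210, limma), and its other probe 0.82 further (adjusted p = 0.0125, limma). NCK1 fell less, by 0.73 (interval 0.19 to 1.26, adjusted p = 0.0192, limma). Both calls were lost with the replicate number as a block (adjusted p = 0.0552 for CD247 and 0.0506 for NCK1, limma) and without either KO array. LCK gave no call, with a difference of -0.23 (interval -0.82 to 0.37, adjusted p = 0.377, limma), which leaves room for a fall of up to 0.82 more than that of the CD3 chains. These intervals do not hold the spread between probes of 1 gene. The changes of the 2 CD3G probes differed by 0.74, about as much as CD247 or NCK1 differed from the CD3 chains.

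By brightest probe, the other coreceptors, costimulators, kinases and adaptors tested all differed from the CD3 chains, except CD8A, CD4 and SYK. The differences of CD8A, CD4 and SYK were -0.17 (interval -0.89 to 0.54), -0.26 (interval -0.97 to 0.44) and 0.24 (interval -0.36 to 0.84), with adjusted p of 0.568, 0.386 and 0.358 (limma). CD2 fell less by 0.86 (adjusted p = 0.00860, limma) and FYN by 1.56 (adjusted p = 0.00157, limma), and SH2D1A fell further by 0.62 (adjusted p = 0.0374, limma). GRB2, NCK2, DOK1, DOK2, CDC42, ARPC2, ARPC3, ICOS, CTLA4 and CD40LG lay above the CD3 chains, from 1.03 for ICOS to 3.05 for NCK2. The dimmer probe of ICOS gave no call. Genes of proliferation gave no call for 6 of 8, among them CDK1 at -0.18 and CCNB1 at -0.15. PTCRA and the recombinase genes fell further. PTCRA differed from the CD3 chains by -5.41 (interval -6.75 to -4.06), RAG1 by -5.34 (interval -6.79 to -3.90) and RAG2 by -5.43 (interval -7.13 to -3.72), with adjusted p of 0.000510, 0.000602 and 0.000860 (limma). RAG2 was well above background on 1 of the 2 KO arrays, so its difference rests partly on a signal near background. RAG1 had 4 probes, whose differences ran from -5.94 to -2.39. With the normexp background correction, which changes dim signals most, the difference of PTCRA was -3.61.

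**Figure D4:**
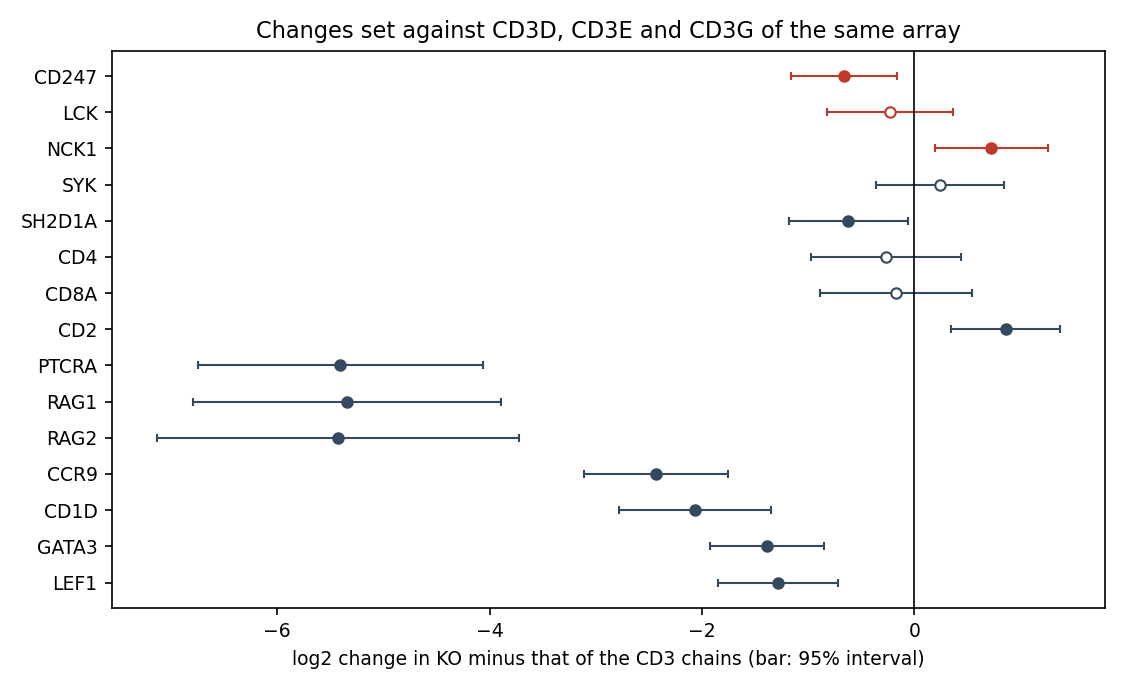
Difference between the log2 change of a gene and that of the CD3 chains (horizontal axis, with bars of the 95% interval), where 0 is the mean change of CD3D, CD3E and CD3G and values below 0 are larger falls. Red marks CD247, LCK and NCK1, and open points gave no call. LCK, SYK, CD4 and CD8A have intervals that include 0, and PTCRA, RAG1 and RAG2 lie below -5. Not all pathway genes are drawn, and most of those left out lie above 0.

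Likeness of pattern was measured as the distance between 4 array values, each gene centred on its own mean, over 2443 named genes well above background on all arrays. The mean pattern of the CD3 chains and CD247 was -1.27 and -1.23 in KO and was highest, at 1.40, in WT replicate 2. The nearest genes outside the pathway were FUT8 (distance 0.0741 log2 units), an enzyme that fucosylates N-glycans, CCND3 (0.0885), a D-type cyclin, CCNB1 (0.113), a mitotic cyclin, NRM (0.116), a protein of the nuclear envelope, and CDK1 (0.128), the mitotic kinase. They changed by -2.58 to -2.44. CD3G lay at 0.0666, CD3E at 0.111, LCK at 0.295, CD3D at 0.390, CD247 at 0.500 and NCK1 at 0.907. The CD3 chains and CD247 are part of the mean pattern, which draws their distances down, while LCK, NCK1 and the genes outside the pathway are not. With 4 arrays in 2 genotypes the distance mostly reflects the size of the change and the offset between the WT arrays.

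CD3E, CD3D and CD3G follow each other in that order in RefSeq's gene table for the Sscrofa11.1 assembly. ATP5L, a subunit of ATP synthase and the nearest gene with a named and tested probe, which lay beyond CD3G, was at -0.59 (SE 0.15, adjusted p = 0.0350, limma) and missed 2-fold. Near CD247, RCSD1 changed by -1.03 (SE 0.19, adjusted p = 0.0153, limma), and POU2F1, its neighbour on the other side, by -0.01. The nearest tested genes around NCK1 were PCCB at -0.19 and CLDN18, which rose by 1.68 (SE 0.32, adjusted p = 0.0166, limma).

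Markers of several cell types moved with genotype beside the 6 genes. A list's summed level is the sum of its tested genes' signals, with the 75th percentile of the array set to 1. For the 6 genes it was 25.9 and 26.5 in KO against 146 and 185 in WT. All 10 tested thymocyte genes were called lower with a median of -4.06, and their summed level was 21.0 and 18.6 in KO against 180 and 254 in WT. This list includes CD4, CD8A, CD2 and PTCRA, and RAG1 and RAG2 changed by -7.68 and -7.76. Its further genes, CD1D, CCR9, GATA3 and LEF1, changed by -4.40, -4.77, -3.72 and -3.62. All 8 tested proliferation genes were called lower with a median of -2.50, near that of the 6 genes, and their summed level was 14.7 and 16.0 in KO against 81.0 and 82.0 in WT.

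Several other lists held genes called higher, a call that 25.4% of all named genes received. All 10 macrophage genes were called higher with a median of 2.12, and their summed level was 285 and 354 in KO against 72.4 and 56.2 in WT. Of the fibroblast genes 3 of 5 were called higher, of the endothelium genes 4 of 5, of the adipocyte genes 3 of 6 and of the thymic epithelium genes 2 of 5, with none lower. Their summed levels ran from 115 to 176 in KO and 27.4 to 63.4 in WT for fibroblast, 19.2 to 21.2 and 4.65 to 7.15 for endothelium, 40.1 to 117 and 9.61 to 17.6 for adipocyte, and 258 to 278 and 74.0 to 105 for thymic epithelium. The KO sum of thymic epithelium was mostly that of KRT8, a keratin, which rose by 2.37, while EPCAM, CCL25 and DLL4 were not called. Among 7 tested genes of NK and gamma-delta T cells, which also carry CD247 or CD3, 5 were called higher and 1 lower. GZMK, a granzyme of cytotoxic cells, rose by 5.28 (SE 0.23, adjusted p = 0.00205, limma). The granzyme GZMA rose by 4.46 (SE 0.23, adjusted p = 0.00205, limma) and was well above background on 1 of the 2 WT arrays. GZMB, another granzyme of the list, changed by -0.76 (SE 0.31, adjusted p = 0.111, limma) and was not called. The receptor KLRK1 rose by 2.52 (SE 0.32, adjusted p = 0.00606, limma). CD163L1, a scavenger receptor of the family that marks pig gamma-delta T cells, was not well above background in KO and at least 20.5-fold lower. The summed level of the NK and gamma-delta T cell list was 53.4 and 69.8 in KO against 16.7 and 13.0 in WT. Its KO sum was mostly that of FCGR3A, which read 5.08 and 5.63 in KO and rose by 2.44 (SE 0.43, adjusted p = 0.0132, limma). Of 4 tested B cell genes 2 were called lower and 1 higher, with summed levels of 3.52 and 4.23 in KO and 2.98 and 2.03 in WT. CD79A, a chain of the B cell receptor complex, changed by -3.47 and MS4A1, a B cell surface protein that was well above background on 1 of the 2 KO arrays, by -3.45. The KO sum of B cell genes was mostly that of BLNK, an adaptor also found in myeloid cells, which rose by 1.43 (SE 0.32, adjusted p = 0.0251, limma). The part of these markers in the changes of the 6 genes was not tested.

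**Figure D5:**
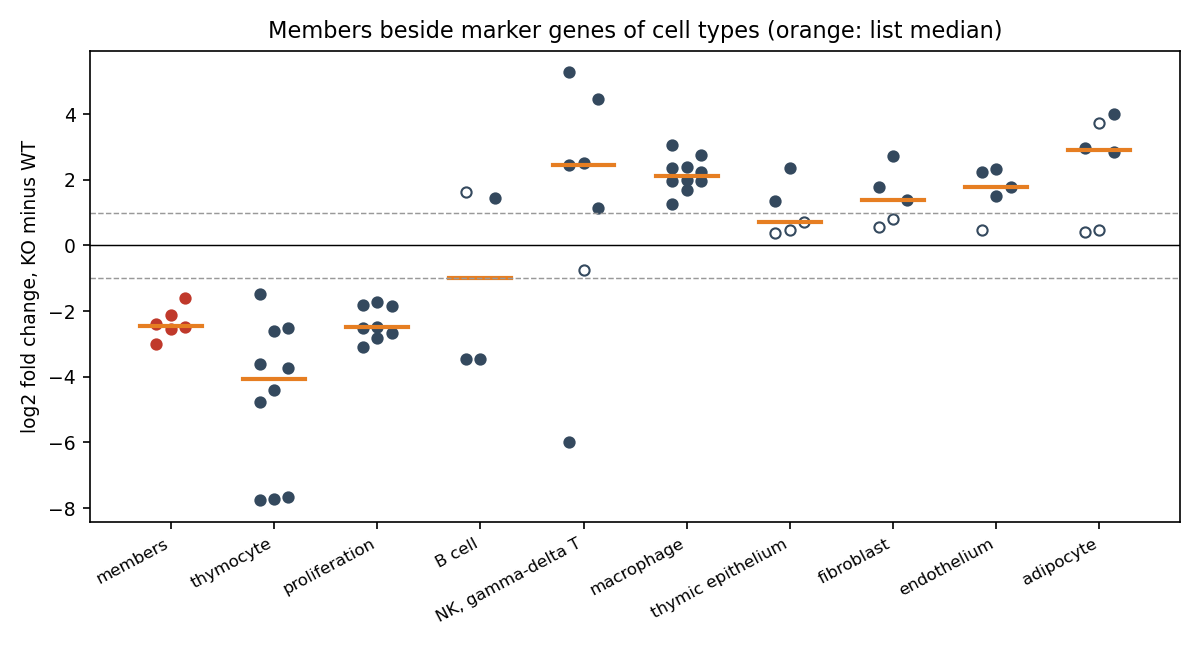
Log2 fold change (vertical axis, KO minus WT) of the 6 genes, in red, and of the tested marker genes of cell types and of proliferation, 1 point per gene by its brightest probe. Filled points were called, open points were not, orange lines are list medians and dashed lines mark 2-fold. The median of the 6 genes, -2.44, lies near that of proliferation, -2.50, and above that of thymocytes, -4.06, while macrophage genes lie around 2.12.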

How the data were processed

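Thymus RNA of IL2RG KO and WT pigs was measured on 4 Agilent porcine arrays with 1 colour, 2 arrays per genotype. The authors deposited the intensity of each spot as Agilent Feature Extraction 11.0.1.1 wrote it, with background subtracted and no normalization between arrays. They also deposited a table of quantile normalized log2 values, which followed the log2 scanner signal on each array with a Pearson's r across probes of at least 0.9998. The methods mention Cy-3 and Cy-5, but labels and files hold Cy3 alone. Spleen was not analysed here.

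Control spots and outlier spots were left out, the log2 processed signal was set to the 75th percentile of its array, and spots of a probe were averaged. Probes were kept when both KO arrays or both WT arrays had them well above background, and these 31959 were fitted with lmFit and eBayes of limma 3.58.1 in R 4.3.3 (Python 3.11.15, pandas 2.3.3 and matplotlib 3.10.9 for tables and plots), with Benjamini-Hochberg adjustment over all of them. A call needed an adjusted p under 0.05 and a change of at least 2-fold. For changes relative to the CD3 chains it needed the adjusted p alone. In counts of genes, the probe with the highest mean signal stood for its gene. Names came from RefSeq accessions, which gave a symbol to 15.1% of the 43603 probes. Where a genotype had a probe not well above background on both arrays, the fold is a bound: the mean of the other genotype against, per array, the higher of the probe's own signal and the dimmest signal still marked well above background. The number of arrays limits the precision, and for 1 gene an exact permutation test of this design cannot go below a two-sided p of 0.333.

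The named genes are the 6 members, IL2RG, genes of the pathway and marker lists, and the 5 genes nearest in pattern, to which the neighbours of the members in the RefSeq table were added. The members and lists were chosen with earlier results of these data known. A few genes of the lists are not reported here, and the lists were computed without them. The alternatives were scaling to the median, quantile normalization, normexp with an offset of 50, the deposited log2 values, other filters on dim probes, slide or replicate number as a block, an intensity trend, the methods' t-test, a fold change of 4, other rules for probes of a gene, and leaving out each array. The deviations of same-numbered arrays correlated at -0.29, and those of arrays on the same slide at 0.29.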

Additional observations from a re-analysis of the deposited data

How the results depend on the processing

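By the brighter probe all 6 genes kept their call under 9 alternatives of scaling, background, filter, block, trend and deposited values. The changes were -2.38 to -2.04 for CD3D, -2.66 to -2.24 for CD3E and -2.74 to -2.30 for CD3G. They were -3.26 to -2.83 for CD247, -2.82 to -2.41 for LCK and -1.87 to -1.39 for NCK1. With each array left out, the changes of the 6 genes ran from -3.11 for CD247 to -1.49 for NCK1. By the Bonferroni-corrected t-test of the methods, which called 0 probes of the whole array, 0 of the 6 genes, 0 of their 10 probes, 0 of the 2 IL2RG probes and 0 pathway genes lower or higher were called. With Benjamini-Hochberg adjustment it called 2 of the 6 genes (CD3G and CD247), 2 of the 10 probes, 0 IL2RG probes, and 1 pathway gene lower and 0 higher, with 783 probes lower and 722 higher over the array. Scaling to the median moved the median of all probes from -0.06 to -0.32, called 14 pathway genes lower in place of 6 with the sign of every pathway gene kept, and turned 4170 probes lower and 6712 higher into 6334 and 5810. Normexp called 2726 lower and 3896 higher. Without KO replicate 1 these counts were 2178 and 4246, and without KO replicate 2 they were 2081 and 4012. With an array left out, 0 to 3 pathway genes were called higher, with 0 when it was a KO array, and 0 passed 4-fold.

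With the replicate block the number of members called was 6 and of pathway genes lower 7, and the relative changes of CD247 (-0.66) and NCK1 (0.73) lost their calls. The slide as a block, which crosses the numbers, called 6 members and 6 pathway genes lower. The relative changes and their alternatives were chosen after the values were seen and run for CD247, LCK, NCK1 and PTCRA alone. The relative change of NCK1 also lost its call with all 5 CD3 probes as the reference (0.60) and with quantile normalization (0.52). With an array left out it was 0.64 to 0.81, and that of CD247 -0.71 to -0.62, and both lost the call without either KO array. LCK had no call and PTCRA kept its call under every alternative run for the relative changes. The cause of these losses was not tested. The alternative that names genes by the symbol in the scanner output was not run, since the files used here give accessions, and normexp was run on the median intensity. Where an array was left out, the lone array of its genotype was assumed to vary like those of the other genotype.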
